A study of Mus musculus with 214 samples.

Results

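Ly6d and Tff3 were followed liver by liver through a mouse study of early-life exposure to N-nitrosodimethylamine (NDMA). They are 2 of the 19540 genes in the table of the Mgmt-/- mice and 2 of the 18647 genes in the table of the WT mice. Both were chosen by their NDMA to saline differences in these same livers, which are therefore given as a description, without a test. Ly6d (ENSMUSG00000034634) lies on chromosome 15 from 74762056 to 74763620 on the minus strand of GRCm38 and has 3 exons. Tff3 (ENSMUSG00000024029) lies on chromosome 17 from 31125306 to 31129646, also on the minus strand and with 3 exons. Libraries of this kind read the last part of a transcript, which is the 3′ untranslated region of exon 3 for Ly6d (74762056 to 74762358) and for Tff3 (31125306 to 31125485).

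All mice were C57BL6 and carried the RaDR+/+ and GPT+/+ reporter transgenes, so saline controls carry them too. WT mice had no other allele and Mgmt-/- mice also lacked Mgmt. Pups were injected intraperitoneally on postnatal days 8 and 15 with saline or with NDMA, at 3.5 mg/kg and then 7 mg/kg. RNA came from pieces of liver taken after the day 15 injection, at 1, 2 and 5 days (Day1, Day2, Day5), at 10 weeks (Week10) and at 10 months (Month10). The NDMA and saline groups held 12 and 12 Mgmt-/- livers at Day1, 8 and 7 at Day2, 8 and 8 at Day5, 8 and 8 at Week10, and 13 and 12 at Month10. In WT mice they held 26 and 21 livers at Day1, 8 and 8 at Day2, 8 and 7 at Day5, 8 and 8 at Week10, and 13 and 10 at Month10. Both sexes were present in every group.

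NDMA is turned by the hepatocyte enzyme Cyp2e1 into an agent that methylates DNA, and MGMT is the protein that takes the methyl group off guanine again. Ly6d encodes a small cell surface protein of the Ly6 family, held in the membrane by a lipid anchor and built on the three-finger fold. It is best known as a mark of lymphoid progenitors that become B cells, and it is also made in stratified epithelium. Tff3 encodes a secreted trefoil peptide that goblet cells release with mucins and that helps to repair mucosal surfaces. In the liver, Tff3 is known from the lining of the bile ducts.

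Values are normalized counts, made by the authors by dividing the molecule counts of each library by a size factor. The 2 genotypes were normalized separately, so levels are compared within a genotype only. Library totals ranged from 713584 to 7740710 reads in Mgmt-/- livers (median 2306713.5) and from 150038 to 4791649 in WT livers (median 1700411). The labels do not pair mice, and each library is 1 liver.

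Some libraries stood apart. In 2 Mgmt-/- saline Day5 libraries the kidney androgen-regulated gene Kap reached 6147 and 7562, against at most 13.9 in the other 94 Mgmt-/- libraries, and they were left out by the rule. In 2 WT NDMA Day1 libraries the sex-linked genes did not match the labelled sex, and the WT Day1 values that use sex or these livers are given with and without them. A further 4 WT NDMA libraries, all female and one each at Day2, Day5, Week10 and Month10, held fewer than 300000 reads. The Day2 and Month10 libraries among them had no Ly6d read, which allows up to 31.6 and 19.5 normalized counts when 3 reads are taken as the limit. These limits cover counting error only.

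**Figure D1:**
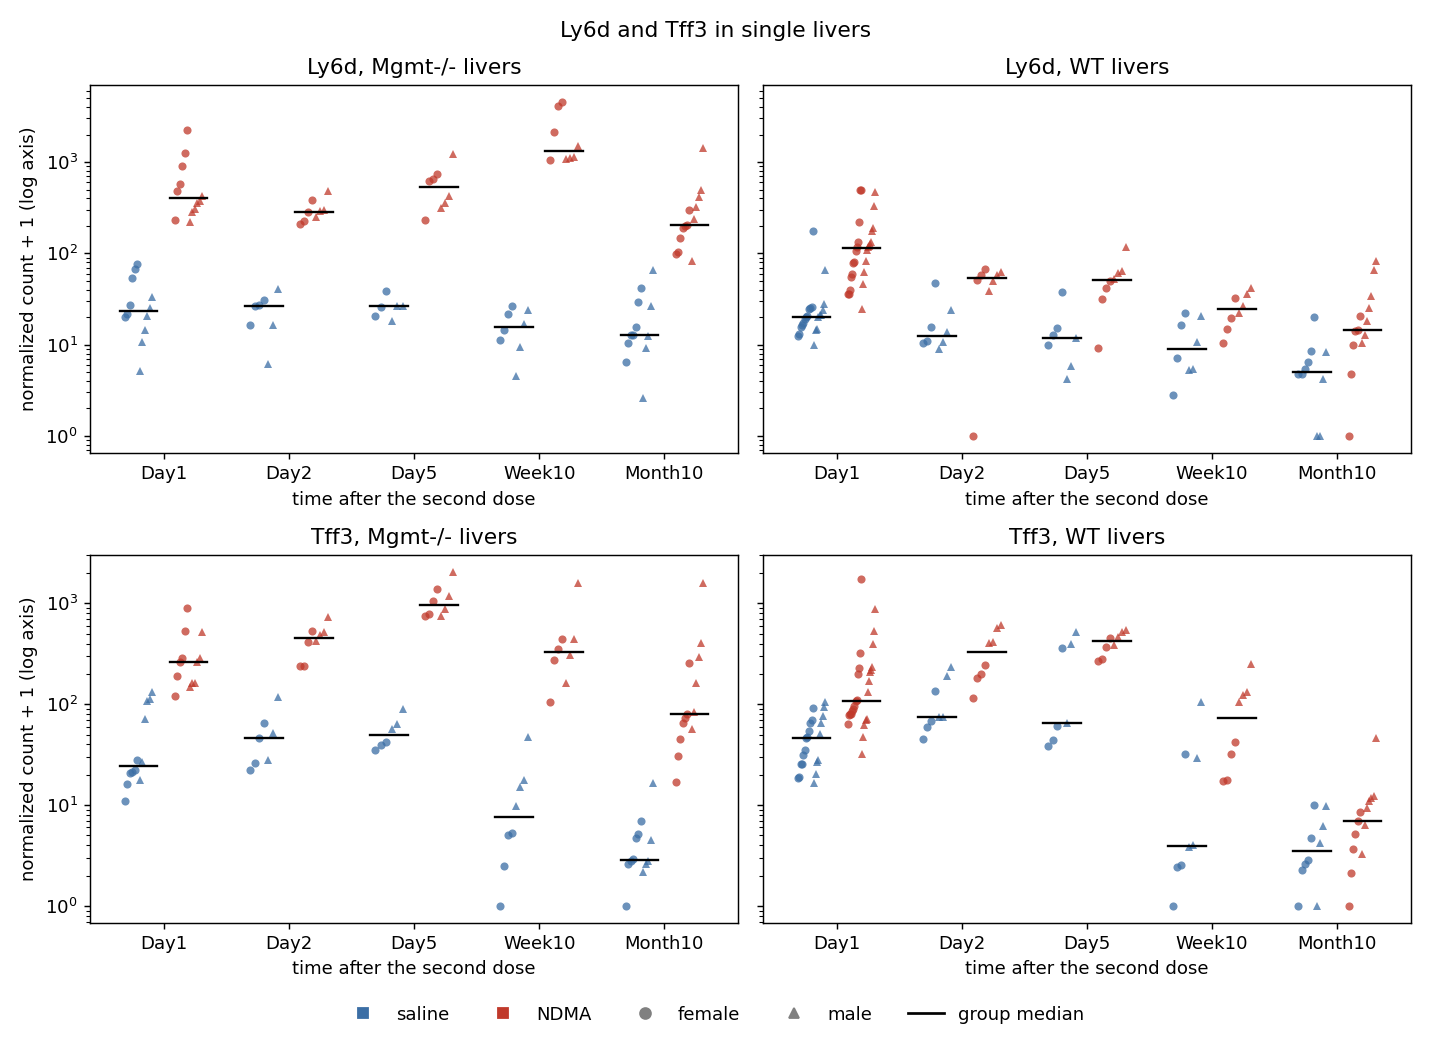
Normalized counts plus 1 of Ly6d (top) and Tff3 (bottom) on a log axis in each Mgmt-/- (left) and WT (right) liver, by time; circles are females, triangles males, black lines group medians. In Mgmt-/- livers the NDMA and saline points separate at every time except for 1 Tff3 value at Day1, while WT points overlap at every time.

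At Week10, Ly6d was far above saline in every Mgmt-/- NDMA liver. The 4 female NDMA livers held 1042, 2128, 4099.9 and 4587 normalized counts of Ly6d, and the 4 males held 1091, 1108, 1126 and 1508. The 8 saline livers ranged from 3.56 to 25.2, with a median of 14.8. The lowest NDMA liver was therefore 41.3 times the highest saline liver, and the ratio of the group medians was 89.0. The fitted log2 fold change on the log2(value + 1) scale was 6.94 ± 0.31 (SE, limma, n = 16), the highest of the 9681 genes tested at that time. Of those genes, 7.27% were called higher and 3.88% lower after NDMA, where a call needs both an adjusted p below 0.05 and a log2 fold change beyond 0.58 in size. In 2.4% every NDMA liver was above every saline liver, and in 0.609% every one was below. Since this contrast chose the genes, nothing is read from those shares for Ly6d or Tff3.

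Tff3 was also above saline in all 8 Mgmt-/- NDMA livers at Week10, but by a narrower margin and with 1 liver far above the rest. The 4 females held 103, 274, 349.7 and 443 normalized counts of Tff3, and the 4 males held 161, 304, 443 and 1587. Saline livers ranged from 0 to 46.8, with a median of 6.61. The lowest NDMA liver was 2.21 times the highest saline liver. The fitted log2 fold change was 5.50 ± 0.53, at rank 3 of the genes tested. The livers highest in Ly6d were not those highest in Tff3: the male with 1587 of Tff3 held 1091 of Ly6d, among the lowest of the group.

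At Month10 all 13 Mgmt-/- NDMA livers were still above all 12 saline livers for both genes. Ly6d ranged from 81.8 to 1421 with a median of 206 after NDMA, and from 1.59 to 64.2 with a median of 11.8 after saline. Tff3 ranged from 16.1 to 1585 with a median of 79.9 after NDMA, and from 0 to 15.6 with a median of 1.87 after saline. The groups did not overlap, yet their edges nearly met: the lowest NDMA liver was 1.28 times the highest saline liver for Ly6d and 1.04 times for Tff3. Fitted log2 fold changes were 3.97 ± 0.45 for Ly6d and 4.89 ± 0.50 for Tff3 (n = 25), at ranks 3 and 1 of 10066 genes tested. Among all those genes 4.75% were called higher and 2.99% lower, and NDMA livers lay wholly above saline livers for 0.129% and wholly below for 0.0596%. Measured instead against the saline mean plus 3 SD on the log2 scale, 8 of 13 livers carried a higher Ly6d level and 12 of 13 a higher Tff3 level. At Week10 the same measure gave 8 of 8 and 5 of 8.

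The male NDMA livers spread most at Month10. Ly6d was 237, 323, 409 and 495 in 4 of the 6 males, with 1 at 81.8 and 1 at 1421, whereas the 7 females lay between 97.1 and 295. Tff3 in the males was 55.6, 82.1, 161, 291, 405 and 1585, and in the 7 females it ran from 16.1 to 256. The male at 1421 of Ly6d held 291 of Tff3, and the male at 1585 of Tff3 held 323 of Ly6d, so the top liver again differed between the genes. Leaving out any 1 liver kept the Month10 log2 fold change between 3.68 and 4.15 for Ly6d and between 4.62 and 5.08 for Tff3. Over 7 settings of processing, single-sex fits aside, it ranged from 3.56 to 4.04 for Ly6d and from 3.82 to 5.89 for Tff3.

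In the first days both genes were already high in Mgmt-/- livers. Ly6d ranged from 220.1 to 2231 at Day1, from 207 to 486.5 at Day2 and from 231 to 1218 at Day5 after NDMA, with medians of 398, 285 and 526. The saline medians were 22.5, 25.7 and 25.3, and the highest saline livers were at 75.6, 40.1 and 37.5. Every NDMA liver was above every saline liver at each of these times. Log2 fold changes of Ly6d were 4.31 ± 0.34, 3.84 ± 0.35 and 4.31 ± 0.33. Tff3 had medians of 262, 449.9 and 958 after NDMA against 23.7, 44.7 and 48.6 after saline, with log2 fold changes of 2.96 ± 0.43, 3.23 ± 0.32 and 4.33 ± 0.22. Tff3 overlapped at Day1 alone, where 11 of 12 NDMA livers exceeded the highest saline liver. All 12 exceeded the highest saline liver of their own sex, since the highest saline values were those of males, but 3 of 12 exceeded the saline mean plus 3 SD. Of all genes, 9.06% were called higher and 8.64% lower at Day1, 12.4% and 7.5% at Day2, and 11.1% and 6.71% at Day5. NDMA livers lay wholly above saline livers for 0.776%, 6.19% and 6.0% of genes and wholly below for 0.457%, 3.02% and 3.23%. When library totals were made equal instead, the share of calls that were higher went from 51.2% to 76.2% at Day1, 62.2% to 80.2% at Day2, 62.4% to 77.9% at Day5 and 65.2% to 86.8% at Week10. The median log2 fold change of all genes was then 0.20, 0.19, 0.17 and 0.24, in place of 0.02, 0.03, 0.03 and 0.04.

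The order of the NDMA medians over time differed between the genes. Ly6d in Mgmt-/- livers ran Week10, Day5, Day1, Day2, Month10 from high to low, and the ranges of each pair of neighbours in that order overlapped. Tff3 ran Day5, Day2, Week10, Day1, Month10. Its Day5 livers, from 743 to 2065, did not overlap the Day2 livers, from 240.4 to 733, and the other neighbours did overlap. The Day2 and Day5 livers were sequenced in batch 191212Eng and the Week10 and Month10 livers in 200803Eng, so time and batch cannot be told apart between those times.

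**Figure D2:**
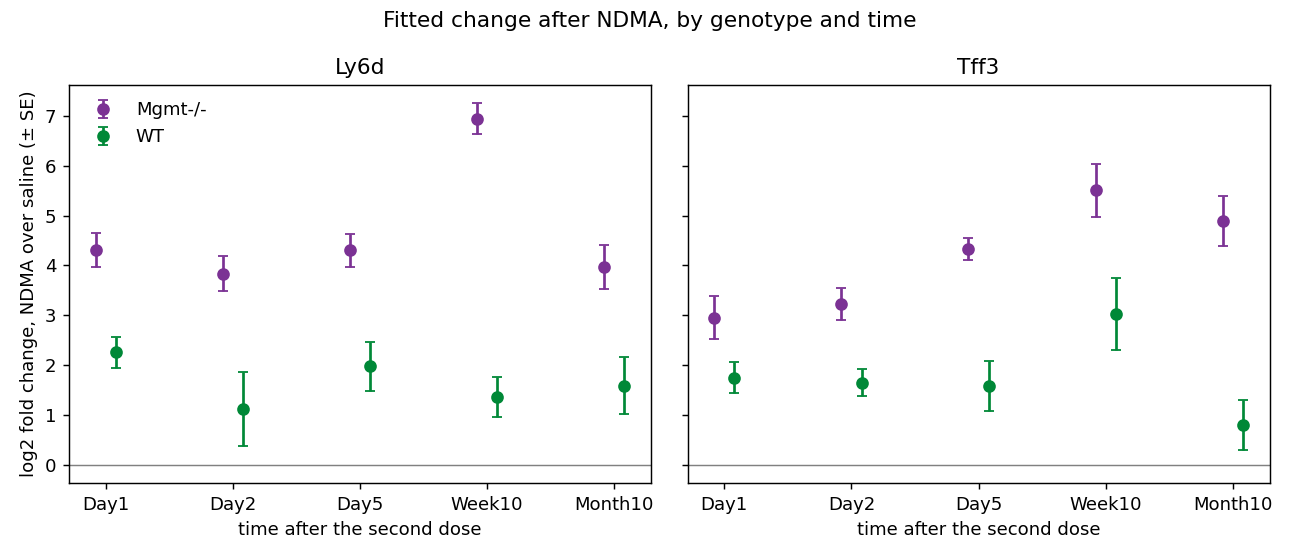
Fitted log2 fold change (NDMA over saline, ± SE) of Ly6d (left) and Tff3 (right) at each time in Mgmt-/- and WT livers. Ly6d in Mgmt-/- livers is highest at Week10 (6.94), and each Mgmt-/- value lies above the WT value of the same gene and time.

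In WT livers the NDMA and saline groups overlapped at every time, and the log2 fold changes were smaller than in Mgmt-/- livers. That difference between the genotypes was not tested, since their tables were normalized separately. At Day1 Ly6d ranged from 23.3 to 494 with a median of 112 after NDMA and from 8.80 to 174 with a median of 19.2 after saline. Tff3 at Day1 ranged from 31.5 to 1763 with a median of 108 after NDMA and from 15.5 to 105 with a median of 45.1 after saline. Above the highest saline liver were 7 of 26 livers for Ly6d and 14 of 26 for Tff3. A single saline female at 174 set the Ly6d limit: without that liver 18 of 26 exceeded the next highest. Against the saline mean plus 3 SD, 5 of 26 did for Tff3. Log2 fold changes were 2.27 ± 0.31 for Ly6d and 1.75 ± 0.31 for Tff3, beside 5.01% of 9028 genes called higher and 4.19% lower. When library totals were made equal, the share of calls that were higher went from 54.5% to 65.9% at Day1 and from 53.4% to 68.0% at Day2. Without the 2 libraries of mismatched sex genes the Day1 values were 2.44 and 1.87, and the counts 7 and 14 of 24. By sex, the log2 fold changes at Day1 were 2.14 in females and 2.41 in males for Ly6d and 1.84 and 1.65 for Tff3, and without those libraries 2.28 and 2.62, and 1.92 and 1.83. Against the highest saline liver of the same sex 13 Ly6d and 15 Tff3 values were higher, both with and without them.

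The WT Day1 difference was uneven over sequencing batches. Ly6d had a log2 fold change of 2.41 ± 0.28 in batch 191212Eng and 2.94 ± 0.44 in 210901Eng, but 0.61 ± 0.80 in 200803Eng. Tff3 gave 2.00 ± 0.43, 2.27 ± 0.48 and 0.25 ± 0.50 in the same order. Batch 200803Eng held 6 NDMA and 4 saline livers, and the 2 libraries with discordant sex genes were among the 6. In Mgmt-/- livers at Day1 the batches gave 4.88 ± 0.40 (191212Eng) and 3.18 ± 0.24 (200803Eng) for Ly6d, and 2.70 ± 0.54 and 3.47 ± 0.60 for Tff3.

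The later WT medians were lower for Ly6d. Its medians after NDMA were 52.9, 50.0, 23.4 and 13.5 at Day2, Day5, Week10 and Month10, against 11.4, 10.9, 7.93 and 4.07 after saline. Tff3 medians were 326, 419, 72.3 and 5.99 after NDMA and 74.0, 64.0, 2.92 and 2.53 after saline. The number of NDMA livers above the highest saline liver was 6, 6, 5 and 5 for Ly6d and 5, 2, 3 and 4 for Tff3, of 8, 8, 8 and 13. Against the saline mean plus 3 SD these counts were 0, 1, 0 and 1 for Ly6d and 2, 0, 0 and 1 for Tff3. Without the highest saline liver, Ly6d at Month10 gave 11, and Tff3 gave 4 at Day5 and 5 at Week10. In the same order log2 fold changes were 1.12 ± 0.75, 1.98 ± 0.49, 1.36 ± 0.40 and 1.59 ± 0.57 for Ly6d. Those of Tff3 were 1.66 ± 0.27, 1.59 ± 0.50, 3.03 ± 0.73 and 0.80 ± 0.50. The Day2 value of Ly6d includes the female library with 150038 reads and no Ly6d read. Over 8 settings of processing that value ranged from 1.04 to 1.86, and the Week10 value of Tff3 from 1.73 to 3.27. The background here was small: 3.33% of genes were called higher and 2.91% lower at Day2, 2.22% and 1.39% at Day5, 0.0249% and 0.0% at Week10, and 0.0% in each direction at Month10. NDMA livers lay wholly above saline livers for 0.373%, 0.22%, 0.0% and 0.0% of genes, and wholly below for 0.245%, 0.0462%, 0.0249% and 0.0%. The 2 genes called at Week10 were Sult2a7, a sulfotransferase, and 1810053B23Rik, named after their values were seen. At Month10 limma called no gene, although 757 of 9254 had an unadjusted p under 0.05, while edgeR called 0 and DESeq2 called 1.

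At Week10 Tff3 was 104, 124, 132 and 252 in the 4 NDMA males and 16.5, 16.7, 31.3 and 41.1 in the 4 females, while the saline livers included 1 male at 105 and 1 female at 31.5. At Month10 Ly6d was 80.8 and 64.1 in the 2 highest NDMA livers, both male, against 19.0 in the highest saline liver. Both genes passed the highest saline liver together in 3 of 8 livers at Week10 and 2 of 13 at Month10, and neither did in 3 and 6 livers. In Mgmt-/- mice both passed together in 8 of 8 and 13 of 13 livers, while the saline mean plus 3 SD was passed by 5 of 8 for Tff3 at Week10 and 8 of 13 for Ly6d at Month10.

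**Figure D3:**
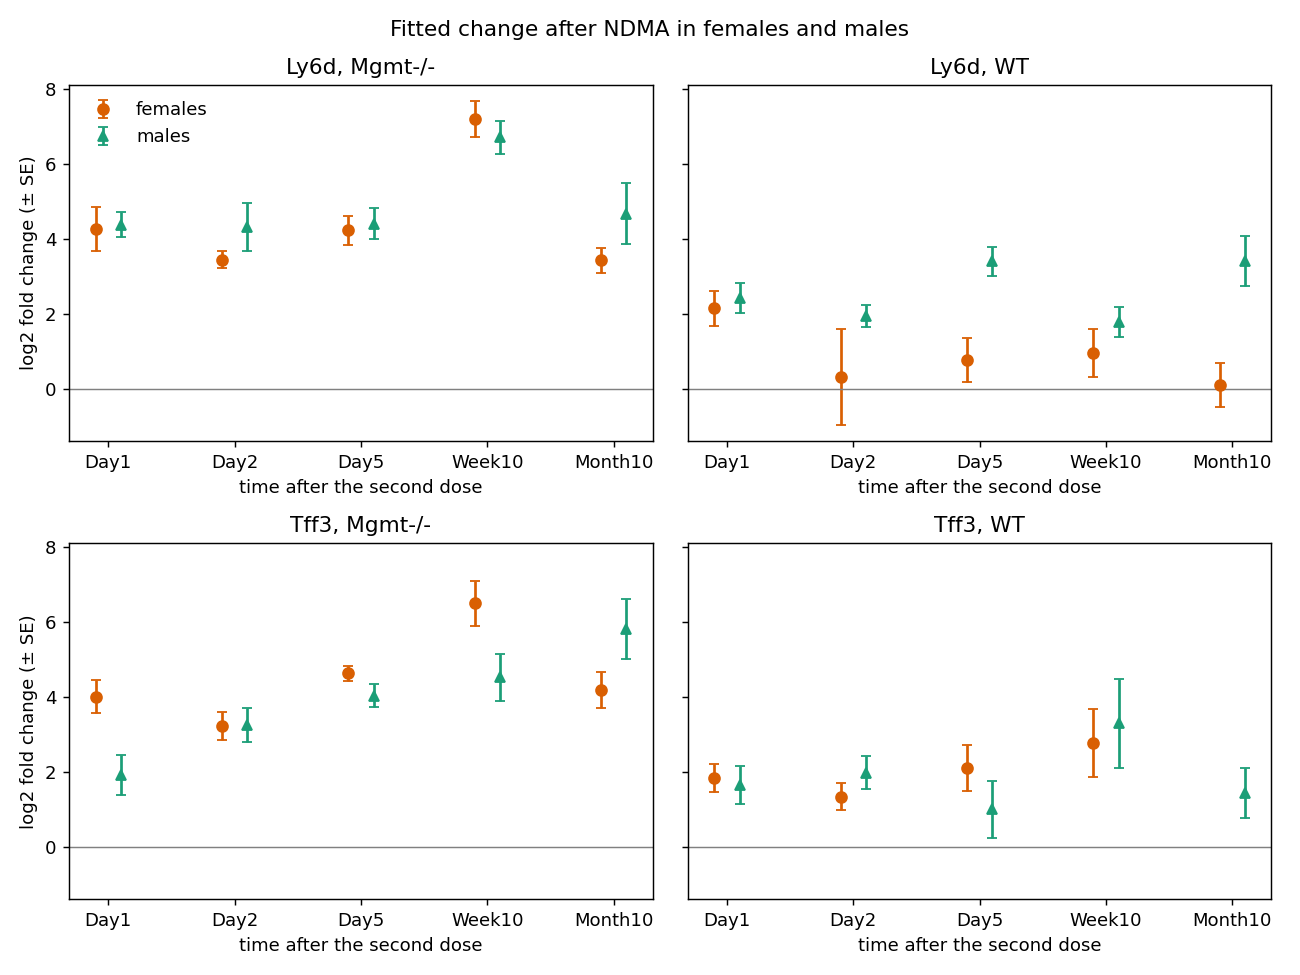
Log2 fold change (NDMA over saline, ± SE) fitted in females and in males alone for Ly6d (top) and Tff3 (bottom) in Mgmt-/- (left) and WT (right) livers. For WT Ly6d the male value is above the female value at each time, by most at Month10 (3.41 against 0.10); WT Tff3 at Month10 has no female value because its mean count was under 5.

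Whether the sexes responded alike was tested with a sex-by-treatment term, which the choice of the genes had not used. No term of Ly6d or Tff3 passed at any time in either genotype (limma, adjusted p from 0.36 to 1.00 over all genes tested). At WT Day1 the terms were 0.24 for Ly6d and -0.22 for Tff3, and 0.34 and -0.11 without the 2 libraries of mismatched sex genes (adjusted p = 1.00 each). In WT livers 0.0% of all genes passed at each of the 5 times, as did 0.0% in Mgmt-/- livers at Day1, Day2 and Day5. The largest for Ly6d was in WT livers at Month10, with a response 3.31 ± 0.95 higher in males on the log2 scale (unadjusted p = 0.0018, adjusted p = 0.68). There, all 7 NDMA males exceeded the highest saline male, at 7.36, but 1 of 6 NDMA females exceeded the highest saline female, at 19.0. Of the 4 saline males 2 had no Ly6d read, which allows up to 4.79 and 8.77 with 3 reads as the limit. The lowest NDMA male held 9.46, so the size of the male response rests partly on values at the floor. In 1.38% of all genes every NDMA male was above every saline male. Ly6d in WT livers at Day5 gave 2.63 ± 0.77 (adjusted p = 0.77), with log2 fold changes of 3.39 in males and 0.76 in females. The WT NDMA females at Day2, Day5, Week10 and Month10 each included 1 library under 300000 reads. Those libraries held 0, 1, 2 and 0 Ly6d reads. Without any 1 liver the WT Ly6d term ran from 0.43 to 1.41 at Week10 and from 2.78 to 4.16 at Month10. At Day2, Day5 and Week10 the WT males were sequenced in 200710Eng and the females in 200724Eng, so there sex cannot be told apart from batch. At Month10 batch 200803Eng held both sexes, but with 1 saline male. The Ly6d log2 fold change at Month10 was 4.26 in the males of 200710Eng, 0.09 in the females of 200724Eng and 0.70 in 200803Eng.

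Tff3 leaned the other way in Mgmt-/- livers at Day1, where the male response was lower by a log2 difference of -2.09 ± 0.73 (adjusted p = 0.54). Female livers went from a median of 20.1 after saline to 274 after NDMA, and male livers from 89.2 to 213. The same sign was seen at Week10 (-1.98 ± 0.92, adjusted p = 1.00). At Month10 the sign was opposite (1.62 ± 0.97, adjusted p = 0.36). Across all genes the term passed for 0 of 10055 at Day1, 11 of 9681 at Week10 (0.0826% higher and 0.031% lower in males) and 34 of 10066 at Month10 (0.228% and 0.109%).

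Saline livers showed the levels without NDMA. These livers also entered the differences by which the genes were chosen, so their differences with age and sex are descriptions, with no test. Against Day1, with sex and batch as terms, Tff3 in Mgmt-/- saline livers differed by -2.19 ± 0.58 at Week10 and -3.14 ± 0.55 at Month10 on the log2 scale (n = 45). WT saline livers gave -2.75 ± 1.16 and -3.94 ± 0.96 (n = 54). For Ly6d the values were -1.69 ± 0.53 and -1.68 ± 0.50 in Mgmt-/- livers and -0.50 ± 0.73 and -2.07 ± 0.61 in WT livers. By adjusted p (limma), 10.2% and 23.4% of the genes tested in Mgmt-/- saline livers, and 4.1% and 17.1% in WT, were lower at Week10 and Month10. In the same order 802 and 2917 of 12945 genes were higher in Mgmt-/- livers, and 354 and 2724 of 12437 in WT livers. Only 4 Mgmt-/- Day1 saline livers were in the batch of the later times. In WT mice no Week10 saline liver shared a batch with a Day1 saline liver. With the batch term, those times are linked through Month10 livers, which lay in batches of each. Without the batch term the Ly6d differences in Mgmt-/- livers were -0.79 and -0.78, and the Week10 differences in WT livers were -1.23 for Ly6d and -2.52 for Tff3.

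The fitted Tff3 level was higher in male than in female Mgmt-/- saline livers, by 1.24 ± 0.29. Among all genes, 0.579% were called higher in males and 0.842% lower. In batch 200803Eng alone the Tff3 difference was 1.37 ± 0.42. At Day1 the saline males had a median of 89.2 and the females 20.1, and at Week10 all 4 males, from 8.90 to 46.8, were above all 4 females, from 0 to 4.33, as for 2.09% of genes. In WT saline livers the fitted Tff3 difference between males and females was 0.33 ± 0.52. For Ly6d it was -0.63 ± 0.26 in Mgmt-/- livers and -0.19 ± 0.33 in WT livers. Median Tff3 in WT saline males was 49.6, 131, 396, 15.7 and 4.23 at Day1, Day2, Day5, Week10 and Month10. In WT saline females the medians were lower, at 39.6, 62.9, 51.6, 1.46 and 1.73, with overlapping ranges each time. At Day2, Day5 and Week10 the WT males and females were sequenced in different batches, so there the fit cannot tell sex from batch.

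**Figure D4:**
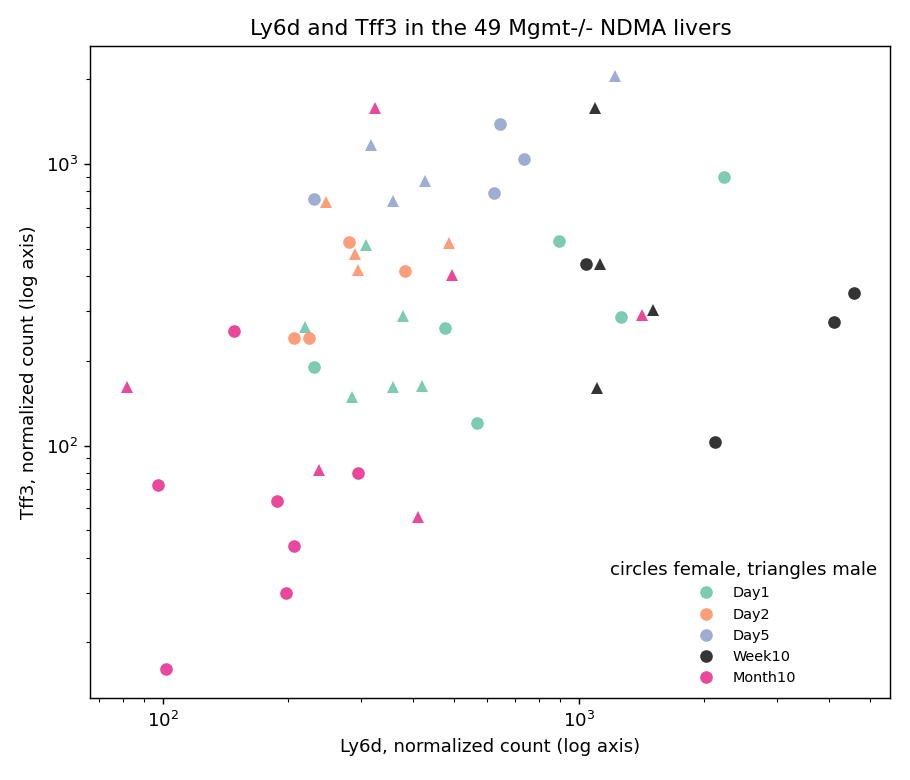
Tff3 against Ly6d (normalized counts, log axes) in the 49 Mgmt-/- NDMA livers, coloured by time; circles are females and triangles males. At Week10 Ly6d is above 1000 in every liver while Tff3 runs from 103 to 1587, and the liver highest in one gene is not the liver highest in the other.

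Within a group the genes did not keep a fixed ratio. Pearson's r between the log2 values of Ly6d and Tff3 over Mgmt-/- NDMA livers was 0.58 at Day1 (n = 12, Spearman's rho 0.36), 0.45 at Day2 (n = 8, rho 0.29), 0.72 at Day5 (n = 8, rho 0.64), -0.29 at Week10 (n = 8, rho -0.52) and 0.42 at Month10 (n = 13, rho 0.40). Without the 2 livers farthest from the Ly6d median these became 0.23, 0.16, 0.22, -0.64 and 0.49. These are descriptions, because sex, batch and depth vary among the livers of a group. Depth itself moved with Tff3 at Day1 in these livers (r = -0.74 with the log2 of total reads), and its part in the values was not tested.

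Over all 49 Mgmt-/- NDMA livers, with the mean of each time subtracted, Tff3 ranked 414 of 10174 genes by likeness to Ly6d (r = 0.34). The 6 genes most like Ly6d were S100a10 (r = 0.71), a calcium-binding partner of annexin, Serpinb6a (0.67), a protease inhibitor, Plin2 (0.67), which coats lipid droplets, Fam241b (0.65), Dctn5 (0.64), a dynactin subunit, and Sprr1a (0.63), a precursor of the cornified envelope. By Spearman's rho 4 of these stayed among the first 6, and all 6 within the first 20. The 6 most like Tff3 were Fkbp11 (0.74), a prolyl isomerase of the endoplasmic reticulum, Tmem19 (0.73), S100a8 (0.73), a neutrophil calcium-binding protein, Nme2 (0.71), a nucleoside diphosphate kinase, Ccl6 (0.70), a chemokine, and Elof1 (0.68), an elongation factor. With Spearman's rho only 1 of these stayed among the first 6, Ccl6, and the others ranked from 8 to 22. The measure is across livers that share a library preparation, and no test was made.

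Sprr1a was at 0 in all 12 Day1 and all 8 Week10 saline livers of Mgmt-/- mice. After NDMA it ranged from 3.53 to 201 at Day1 and from 19.7 to 113 at Week10. Against a floor of 3 reads per saline library this was at least 15.9-fold higher at Day1 and at least 9.66-fold higher at Week10. It passed the filter through the NDMA livers alone, so no p is given. At Month10 it averaged 7.85 ± 7.43 (SD, n = 13) against 0.702 ± 0.911 (n = 12) and its mean was under the filter.

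Of the other Ly6 and three-finger family genes, Ly6e and Ly6a, interferon-inducible members, were higher in Mgmt-/- livers at Week10 (log2 fold changes 1.92 ± 0.28 and 1.87 ± 0.32, adjusted p = 3.66e-05 and 0.0002). The list held 33 genes, of which 31 were measured and 9 passed the filter at Week10, a mean of 5 over the livers compared. A gene near 0 after saline passes that filter only by being high after NDMA. Calls of this and the other lists were therefore counted over genes with a saline mean of at least 5, a rule added after seeing the data. Of all such genes 7.82%, 10.2%, 9.13%, 5.65% and 3.89% were called higher in Mgmt-/- livers at Day1, Day2, Day5, Week10 and Month10, and 4.14%, 3.24%, 2.15%, 0.0255% and 0.0% in WT livers. Called lower, in the same order, were 8.95%, 7.84%, 7.05%, 4.07% and 3.1% in Mgmt-/- livers and 4.28%, 3.01%, 1.44%, 0.0% and 0.0% in WT livers. In the family 2 of 6 genes were called higher at Week10, 2 of 6 at Day1, 3 of 6 at both Day2 and Day5, and 2 of 7 at Month10. One was lower at Day1, Gpihbp1, which holds lipoprotein lipase on capillaries (-0.79 ± 0.15, adjusted p = 0.00014). WT livers gave 3 higher of 6 at Day1 and at Day2, 1 of 6 at Day5, and 0 of 7 at Week10 and at Month10, times at which almost no gene was called. Ly6e held most of the list's counts, at 3081 ± 592 (SD, n = 8) after NDMA and 913 ± 428 after saline. Ly6c1 and Ly6c2, carried by monocytes, averaged 12.4 and 22.2 after NDMA and 1.82 and 4.23 after saline at Week10. They are near-identical copies, so the division of reads between them is uncertain.

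The genes that lie beside Ly6d stayed low. Within 100 kb, 12 other genes were measured, and at Week10 10 of them had a mean under 5 in the Mgmt-/- NDMA livers. The highest was Ly6k, at a mean of 12.4 after NDMA and 0.854 after saline, and at Day1 it averaged 7.10 (highest liver 28.6) and 0.105. At Week10 a single NDMA female held 86.9 of Ly6k, and the log2 fold change of Ly6k was 1.42 ± 0.74. This gene passed the filter through the NDMA livers alone, so no p is given. Gml and Gml2, next to Ly6k, were listed at 0 in all Day1 saline livers and averaged 3.49 and 2.96 after NDMA. Slurp1, Lypd2 and Psca, Ly6 genes of epithelium, averaged at most 0.434, 0.155 and 0.363 in any of the Day1, Week10 and Month10 groups.

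Within 100 kb of Tff3, 5 other genes were measured, among them both other trefoil genes. Tff2, the trefoil peptide of the gastric neck, lies next to it and was at 13.3 ± 15.0 (SD, n = 8) after NDMA and 1.01 ± 1.45 after saline at Week10. Tff1 had a mean of 3.86 at Week10, which came from 1 NDMA female at 30.9, with 0 in the 7 others and in all saline livers. That female also held the highest Tff2 of the group (49.4), yet the lowest Tff3 (103) of the group. Of 26 genes of trefoil and mucosal secretion 22 were measured, 3 had a saline mean of at least 5 at Week10 and 1 was called higher, Spink1, a secreted trypsin inhibitor (4.35 ± 0.26, adjusted p = 8.13e-11). Spink1 averaged 6.73 ± 3.24 after saline and 156 ± 64.0 after NDMA. The list's most abundant gene was Pigr, the carrier of secretory antibodies, at 507 after saline and 293 after NDMA (adjusted p = 0.062). The calls were 2 higher and 0 lower of 3 at Day1, Day2 and Day5, Spink1 and Pigr each time, and 0 of 2 at Month10, when Spink1 averaged 19.3 after NDMA and 3.78 after saline. Of 5 candidate receptors of trefoil peptides in Mgmt-/- livers, Lingo2 had no read in any Day1 or Week10 liver, Cxcr4 averaged at most 0.851 at Day1, Week10 and Month10, and none was called at those times or at Day2. Egfr was lower at Day5 (-0.96 ± 0.21, adjusted p = 0.0019), and in WT livers at Day2 (-0.84 ± 0.22, adjusted p = 0.024). It held most of that list's counts in Mgmt-/- livers, at 256 after saline and 207 after NDMA at Week10.

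The cells that hold the transcripts cannot be read from whole-liver RNA, where more cells of a type and more RNA per cell cannot be told apart. Marker genes were therefore set beside Ly6d and Tff3. The 9 hepatocyte genes measured summed to a median of 137077 after NDMA and 197198 after saline at Week10. At Day1, 0 of the 9 were called higher and 5 lower, among them Alb (-0.82 ± 0.14) and Cyp2e1 (-3.76 ± 0.35), and 4 and 2 of 9 were lower at Day2 and Day5. At Week10, 2 were lower, Cyp2e1 (-1.74 ± 0.24, adjusted p = 1.83e-05) and Serpina1c (-1.01 ± 0.29, adjusted p = 0.023), which shares reads with near-identical copies. At Month10 Apoa1 was higher (0.58 ± 0.19, adjusted p = 0.042, a call lost without covariates) and Cyp2e1 lower (-0.86 ± 0.18).

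Among cholangiocyte genes Spp1 and Bicc1 were higher after NDMA at the late times. At Week10 the sum of the list ran from 488 to 1909 after NDMA and from 70.7 to 647 after saline, and at Month10 from 241 to 3747 and from 62.8 to 162. Of 15 measured, 4 had a saline mean of at least 5 at Week10 and 2 were called higher, Spp1 (3.13 ± 0.41, adjusted p = 2.37e-05) and Bicc1 (1.20 ± 0.35, adjusted p = 0.026). Tspan8 averaged 29.7 after NDMA and 1.89 after saline, and Cd24a 12.5 and 2.30. At Month10 the same 2 of 4 were higher. At Day1 none of 7 was higher and 2 were lower, Spp1 and Cd24a, and none was higher and 1 was lower of 5 at Day2 and of 4 at Day5. The sum was mostly Spp1, which macrophages also make, at a mean of 930.3 after NDMA at Week10. Krt19, the defining marker, averaged 4.20 ± 6.58 (SD) after NDMA and 0.319 ± 0.604 after saline at Week10, and 4.36 ± 5.10 and 1.03 ± 1.13 at Month10, under the filter.

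**Figure D5:**
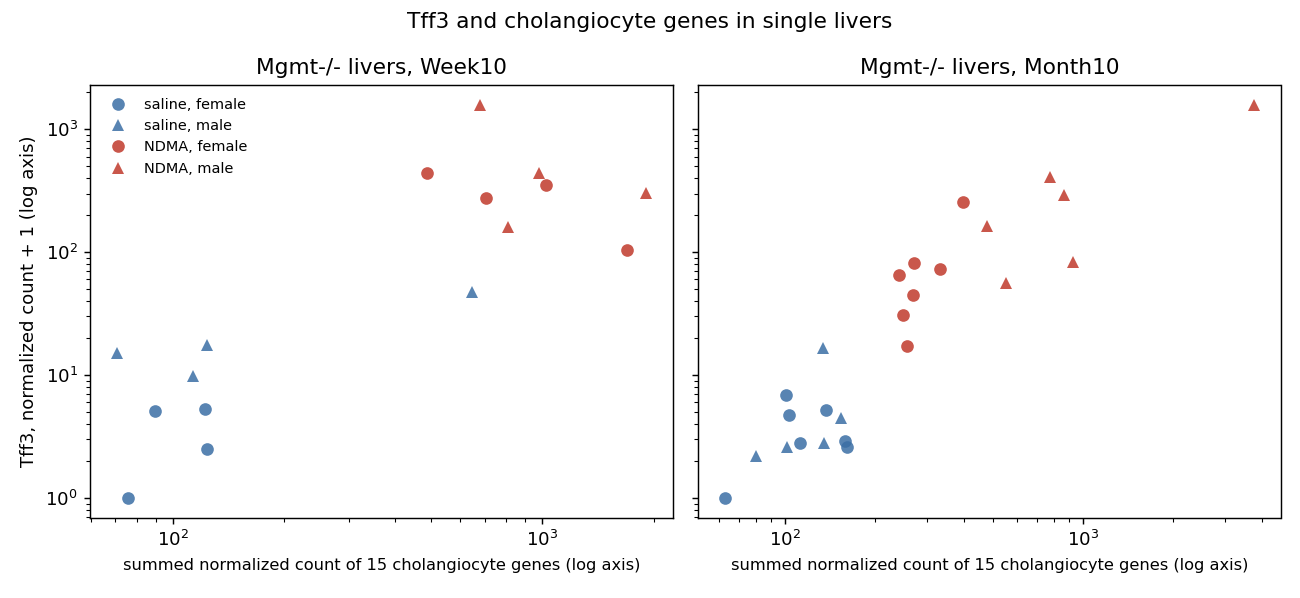
Tff3 (normalized count plus 1) against the summed normalized counts of 15 cholangiocyte genes in single Mgmt-/- livers at Week10 (left) and Month10 (right), log axes, by treatment and sex. At Month10 the 6 NDMA males lie to the right of the 7 NDMA females, and the male with 1585 of Tff3 has the highest sum, 3747.

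Krt19 and Tff3 can be set side by side in single livers. The Month10 male with 1585 of Tff3 held 0.967 of Krt19 and 0 of Krt7, though it held 3669 of Spp1. The male with the highest Krt19 at that time, 19.7, held 82.1 of Tff3. At Week10 the male with 1587 of Tff3 held 2.64 of Krt19, and the female with the highest Krt19, 20.3, had the lowest Tff3. The Krt19 values of 0.967 and 2.64 each stand for a single read, so counting error limits the Krt19 comparison. For Spp1 the order differed: the Month10 male with 1585 of Tff3 was also the highest in Spp1 and in the sum, and so was the Week10 saline male with 46.8 of Tff3 among the saline livers, at 621 of Spp1. Among the Week10 NDMA livers the male with 1587 of Tff3 held 589 of Spp1, and the highest in Spp1, at 1821, held 304 of Tff3. At Month10 the cholangiocyte sum was from 478 to 3747 in males and from 241 to 397 in females, so no correlation is given over both. The part of bile duct cells in the Tff3 values was not tested.

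Lists of other cells that can make either gene are given next, in Mgmt-/- livers and at Week10 unless another time is named. Among B cell genes, Cd79a averaged 0.232 after NDMA and 0 after saline at Week10, and Jchain of plasma cells 24.1 and 3.42. None of the 2 genes with a saline mean of at least 5 was called. The B cell list summed to a median of 52.2 after NDMA and 34.2 after saline. Of plasmacytoid dendritic cell genes 1 of 3 was higher, Irf8 (1.49 ± 0.41, adjusted p = 0.017), and Siglech averaged 4.18 against 1.08. The list summed to medians of 711 and 516, mostly the interferon-inducible Bst2. Krt5, the defining keratin of squamous epithelium, averaged 0.752 against 0, Trp63 0 against 0.13, and Sprr1a, which belongs to the same list, 51.1 against 0, while none of 3 genes with a saline mean of at least 5 was called. That list summed to medians of 211 and 155, mostly Perp. At Day1, Day2, Day5 and Month10, plasmacytoid dendritic cell genes gave 2, 2, 1 and 2 higher of 3. At Day1, 1 of 3 squamous genes was higher and 2 of 3 B cell genes were lower. At Month10, 1 of 3 squamous genes was lower.

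Vil1 of gut epithelium averaged 1.76 and 1.73, and 1 of 3 genes of gut and gallbladder was higher, Cdhr5 (0.62 ± 0.20, adjusted p = 0.048), a call lost with a pseudocount of 5. The sum of the gut and gallbladder list had medians of 742 and 629, mostly Fabp2, which liver also expresses. At Day1, 2 of 4 of its genes were higher, and at Day2, Day5 and Month10 1 of 2 was higher and 1 lower. Cpa1 of the pancreas averaged 0.0301 and 0 and none of 2 genes was called, with sums of 114 and 194, mostly Cela1. The kidney list, with Kap at 0 in all Week10 livers, summed to medians of 2.06 and 1.65.

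Genes that p53 switches on were higher at the early times. Of those with a saline mean of at least 5, 9 of 10 were higher in Mgmt-/- livers at Day1, and 8 of 9 at both Day2 and Day5, with 0 lower. At Week10, when Ly6d was highest, 3 of 10 were higher and 0 lower: Cdkn1a, the cell cycle inhibitor p21 (4.95 ± 0.32, adjusted p = 1.81e-10), Ccng1, cyclin G1 (1.04 ± 0.22), and Bax, which promotes apoptosis (0.95 ± 0.22). Phlda3, an Akt repressor, averaged 10.3 after NDMA and 0.261 after saline, Ddit4l, an mTOR inhibitor, 20.8 and 2.63, and Ckap2, of the spindle, 8.82 and 1.35. At Month10 1 of 12 was higher, Cdkn1a (2.13 ± 0.31, adjusted p = 2.2e-05). WT livers gave 8 of 10 at Day1, 6 of 11 at Day2 and 5 of 9 at Day5. At Week10 and Month10 they gave 0 of 7 and 0 of 10, beside 0.0255% and 0.0% of all genes. The female with 4099.9 of Ly6d at Week10 had the highest Cdkn1a (349.5), and the female with 4587 the next (337), against 97.7 to 200.4 in the other 6. The liver next in Ly6d, a female at 2128, held 115 of Cdkn1a. At Month10 the male highest in Ly6d, at 1421, held 36.4 of Cdkn1a. The male highest in Cdkn1a at that time, at 105.4, held 323 of Ly6d. A link between the 2 genes over livers was not tested.

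Of proliferation genes with a saline mean of at least 5, 3 of 3 were higher at Week10, Birc5, a survivin (2.55 ± 0.50, adjusted p = 0.001), Top2a, a topoisomerase (1.79 ± 0.32), and Cdk1, the mitotic kinase (1.72 ± 0.26). Ccnb2, cyclin B, averaged 9.59 after NDMA and 1.70 after saline. Mki67 averaged 7.68 ± 4.10 after NDMA and 1.39 ± 2.29 after saline (SD, n = 8 each). The calls were 2 of 12 at Day1, 6 of 12 at Day2, 3 of 12 at Day5, all higher, and no gene reached a saline mean of 5 at Month10.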

How the data were processed

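Liver libraries were of the 3′ digital gene expression kind, with molecular identifiers. Per the paper's methods and the labels, the authors aligned reads with STAR to GRCm38 (mm10), counted them with ESAT and divided by DESeq2 size factors; the deposited normalized counts are signal values per gene. All 213 columns were matched to labels; of 214 labelled samples, 1 is not analysed here. In 209 of the 213 columns all nonzero values were whole multiples of the value of 1 read (within 0.05 reads), which gave the total reads. In the other 4 columns that value was within 1% of 1 and the check was not made. The totals called reads are these recovered counts.

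The members and lists were chosen with earlier results of these data known. limma 3.58.1 (trend, robust) was fitted to log2(value + 1) of genes with a mean of at least 5 (1 for saline livers), with sex and sequencing batch as terms, and Benjamini-Hochberg adjustment over all genes. The threshold for a call was 0.05 for the adjusted p and 0.58 for the size of the log2 fold change. Per the study's methods whole litters were assigned to saline or NDMA, with separate litters used where possible. The labels give no litter, so litter and treatment cannot be told apart here, and p-values measure the spread between these mice. edgeR 4.0.16 and DESeq2 1.42.0 on recovered reads (209 columns), other pseudocounts, filters, scalings and left-out libraries were alternatives. Named list genes were the first of each list and up to 4 called genes with the largest change at Week10 in Mgmt-/- livers, and the 6 genes most like each member; the rest were named after their values were seen. The first gene of 1 list is not reported here. Coordinates come from GENCODE vM21. The fitted differences with age and sex in saline livers are given without a p, since those livers entered the choice of the genes. Fits were tested on simulated data.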

Additional observations from a re-analysis of the deposited data

Results flagged for a closer look

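Single livers stood far from the rest of their group for 7 group values out of 26 tested, where chance alone flags about 1 in 20. For Ly6d in WT saline livers these were a Day2 female at 46.4 (next highest 23.1), a Day5 female at 36.9 (next 14.1) and a Month10 female at 19.0 (next 7.47). The WT NDMA Day2 female at 0 of Ly6d (next lowest 37.6) came from the library with 150038 reads. For Tff3 they were a Mgmt-/- saline Week10 male at 46.8 (next 16.7), a Mgmt-/- NDMA Week10 male at 1587 (next 443) and a WT saline Week10 male at 105 (next 31.5).

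The 2 Mgmt-/- saline Day5 libraries left out held 6147 (female) and 7562 (male) of Kap and 526 and 161 of Alb, against at least 29810 of Alb in the other 94 Mgmt-/- libraries. Their Ly6d values were 1.41 and 7.08 and their Tff3 values 1.41 and 0.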

How the results depend on the processing

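No paired analysis was possible because the replicate codes differ between groups. Log2 fold changes that moved by more than the spread between livers were, at Day1 in Mgmt-/- livers, Ly6d in batch 200803Eng (3.18) and Tff3 in females (4.0) and males (1.91). With all Mgmt-/- saline Day5 libraries kept they were 4.94 for Ly6d and 5.59 for Tff3. In WT livers they were 0.61 for Ly6d and 0.25 for Tff3 in batch 200803Eng at Day1. Ly6d in WT livers was 3.39 in males (200710Eng) and 0.76 in females (200724Eng) at Day5. At Month10 it was 4.26 in 200710Eng, 0.085 in 200724Eng, 0.10 in females and 3.41 in males. Single-sex and single-batch fits aside, Tff3 in Mgmt-/- livers ranged from 4.70 to 5.73 at Week10 and from 3.82 to 5.89 at Month10. In WT livers Tff3 ranged from 0.95 to 1.66 at Day5, 1.73 to 3.27 at Week10 and 0.46 to 1.15 at Month10. Ly6d in WT livers ranged from 1.04 to 1.86 at Day2, 1.63 to 2.35 at Day5 and 1.08 to 1.95 at Month10. The sex-by-treatment term changed sign for Ly6d at Day1 in Mgmt-/- livers with a pseudocount of 5 (-0.086) and in batch 200803Eng (-0.0018), for Tff3 at Day2 with edgeR (-0.16), for Ly6d at Day5 with all libraries kept (-0.32), and at Day1 in WT livers in batch 210901Eng (-0.082 for Ly6d, 0.47 for Tff3). For Tff3 in WT livers at Week10 it ran from -0.51 to 1.47 without single replicates. None of these terms had passed. In saline livers, Ly6d without the batch term gave -0.79 at Week10 and -0.78 at Month10 in Mgmt-/- livers and -1.23 at Week10 in WT livers, and Tff3 gave -2.52 at Week10 in WT livers. In batch 200803Eng alone Ly6d gave -1.69 at Week10 in Mgmt-/- and -2.14 at Month10 in WT livers, and the Tff3 sex difference was 1.37. The cause was not tested.

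Livers above the saline mean plus 3 SD numbered 3 at Day1 and 5 at Week10 for Tff3 and 8 at Month10 for Ly6d in Mgmt-/- mice. In WT mice they numbered 5 for Tff3 at Day1, and for Ly6d and Tff3 0 and 2 at Day2, 1 and 0 at Day5, 0 and 0 at Week10, and 1 and 1 at Month10. Without the highest saline liver they were 18 for Ly6d at Day1, 4 for Tff3 at Day5, 5 for Tff3 at Week10 and 11 for Ly6d at Month10. Against saline livers of the same sex they were 13 for Ly6d at Day1, also without the 2 libraries of mismatched sex genes, 4 for Tff3 at Day5 and 8 for Ly6d at Month10. In Mgmt-/- livers, equal library totals gave 1644 genes higher and 513 lower at Day1 and 1156 and 176 at Week10. A mean of at least 20, which tests fewer genes, gave 551 higher at Day1, 414 at Week10 and 242 at Month10, and 11 and 7 list genes higher at Week10 and Month10. With a saline mean of at least 5, 20 and 13 list genes were higher at Day1 and Week10, in place of 33 and 26. Without covariates 194 genes were lower at Month10, and at Week10 edgeR gave 4 and DESeq2 5 list genes lower. Low depth limits the 4 WT libraries under 300000 reads.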
